A study of Mus musculus with 3 samples.

Results

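The genes described here encode the enzymes and the chaperone that act on collagen chains after translation, namely prolyl 4-hydroxylase (P4ha1, P4ha2, P4hb), the lysyl hydroxylases (Plod1, Plod2, Plod3), the chaperone Serpinh1 and the lysyl oxidases (Lox, Loxl1, Loxl2). They were taken by name from the gene symbol that the deposited table gives each probe, and all 10 were found, with 1 probe each, among 17849 genes read by 25697 probes. The deposited annotation, which names no genome build, places P4ha1 on chromosome 10, P4ha2 on 11, Plod1 on 4, Plod2 on 9, Plod3 on 5, Serpinh1 on 7 and Lox on 18, and gives no chromosome for P4hb, Loxl1 and Loxl2. The single group of the study was dorsal dermal fibroblast progenitors of the mouse at embryonic day 12.5, with the genotype Engrailed1Cre/+;R26R/+, in which Cre recombinase is expressed from the Engrailed1 locus and a Cre reporter sits at Rosa26. Tissue of 5 embryos was cut by laser capture and its RNA pooled, and Illumina MouseRef-8 v2.0 bead arrays were hybridised as technical replicates, here arrays 1 to 3. Every SD below (n = 3 arrays) is therefore the technical spread of 1 RNA pool and holds no variation between embryos. Whether the reporter guided the cutting is not given in the sources used here, no other genotype or stage was analysed here, and no test between groups was possible.

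Newly made procollagen chains are modified in the endoplasmic reticulum before the triple helix closes. Prolyl 4-hydroxylation makes the helix stable at body temperature, lysyl hydroxylation prepares sites for sugars and crosslinks, and both reactions need iron, 2-oxoglutarate and ascorbate. The chaperone Hsp47, the product of Serpinh1, binds the folded helix on its way to the Golgi, and after secretion the copper-dependent lysyl oxidases convert lysine side chains to aldehydes from which crosslinks form. Dermis is a tissue rich in fibrillar collagen, and dermal fibroblasts are the cells that make it.

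All 10 genes gave a signal above background. The detection p ranks the signal of a probe among negative control beads, and detected here means a value under 0.01 on each of the 3 arrays for 1 or more probes of the gene. That rule took in 43.6% of all genes on the array and 37.5% of the genes that, like these, had a single probe. For 9 of the 10 genes the detection p was 0 on every array, the exception being Loxl2. A threshold of 0.001 therefore kept 9 of 10, against 39.7% of all genes. The count was 10 of 10 at a threshold of 0.05, with detection on at least 2 arrays, with detection on at least 1 array and with every probe of a gene required, where the same rules called 48.5%, 47.6%, 51.7% and 32% of all genes. None of these rules could lower the count of 10, being either looser or, with 1 probe per gene, the same.

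Prolyl 4-hydroxylase is a tetramer of catalytic alpha subunits, encoded by P4ha1 or P4ha2, and beta subunits, encoded by P4hb. P4ha1, the gene of the main alpha subunit in most cells, had a normalized intensity of 131, 137 and 128 on arrays 1, 2 and 3 (132 ± 4.73, SD). P4ha2, whose product forms the second type of the enzyme, had 215, 166 and 206 (195 ± 26.0). Arrays 1 and 3 lay close together for P4ha2, and array 2 lay below them. P4hb encodes protein disulfide isomerase, which also forms disulfide bonds in many other secreted proteins, and its probe had 7328, 7649.7 and 7048 (7342 ± 301). The 3 arrays spread by 4.10% of the mean for P4hb (the coefficient of variation, SD over mean), by 3.59% for P4ha1 and by 13.3% for P4ha2. The third alpha subunit gene, P4ha3, was not detected on any array (8.46 ± 9.55).

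The lysyl hydroxylases differ in the lysines they act on. Plod1, which hydroxylates lysines within the triple helix, had a normalized intensity of 83.3, 91.5 and 90.2 (88.3 ± 4.40). Plod2, the enzyme of the telopeptides that flank the helix, had 332, 323 and 311 (322 ± 10.5), the smallest spread of the 10 genes relative to its mean, at 3.27%. Plod3, whose product also adds sugars to hydroxylysine, had 1857, 2106 and 1872 (1945 ± 139.6), with array 2 above the others. Levels of different probes on a bead array depend on how well each probe binds, so the signals of the 3 Plod genes were not ranked.

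Serpinh1 had a normalized intensity of 1696, 1934 and 1707 (1779 ± 134). As for Plod3, arrays 1 and 3 differed little and array 2 was higher, and the coefficient of variation was 7.56%.

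Of the secreted crosslinking enzymes, Lox, the founding lysyl oxidase, had a normalized intensity of 1085, 978 and 1047 (1037 ± 54.4). Loxl1, known in the mouse for its part in elastic fibre formation, had 1030.4, 1136 and 1109 (1092 ± 54.7). The arrays lay close together for both genes, with coefficients of variation of 5.25% for Lox and 5.01% for Loxl1. Loxl2, whose product also acts on basement membrane collagen, had 73.9, 53.9 and 73.6 (67.1 ± 11.5), with a detection p of 0 on arrays 1 and 3 and 0.00501 on array 2. It was the gene nearest to background, and its coefficient of variation of 17.1% was the largest of the 10. The other lysyl oxidase genes on the array, Loxl3 (0.405 ± 2.23) and Loxl4 (-3.76 ± 3.15), were not detected on any array. The Loxl3 probe carries Loxl2 among its older names in the deposited annotation. It was kept under Loxl3 because a probe with the symbol Loxl2 exists.

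How far each signal stood above background differed between arrays. The lowest normalized intensity that passed the detection threshold was 23.1 on array 1, 44.3 on array 2 and 31.2 on array 3. Loxl2 exceeded it by a factor of 3.20, 1.22 and 2.36 on these arrays, and Plod1 by 3.61, 2.06 and 2.89. P4ha1 stood at 5.66, 3.09 and 4.08 times that level, P4ha2 at 9.30, 3.74 and 6.59 times, and Plod2 at 14.4, 7.29 and 9.97 times. The remaining 5 genes, P4hb, Plod3, Lox, Loxl1 and Serpinh1, were at least 22.0 times above it on each array. All 10 margins were narrowest on array 2.

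**Figure D1:**
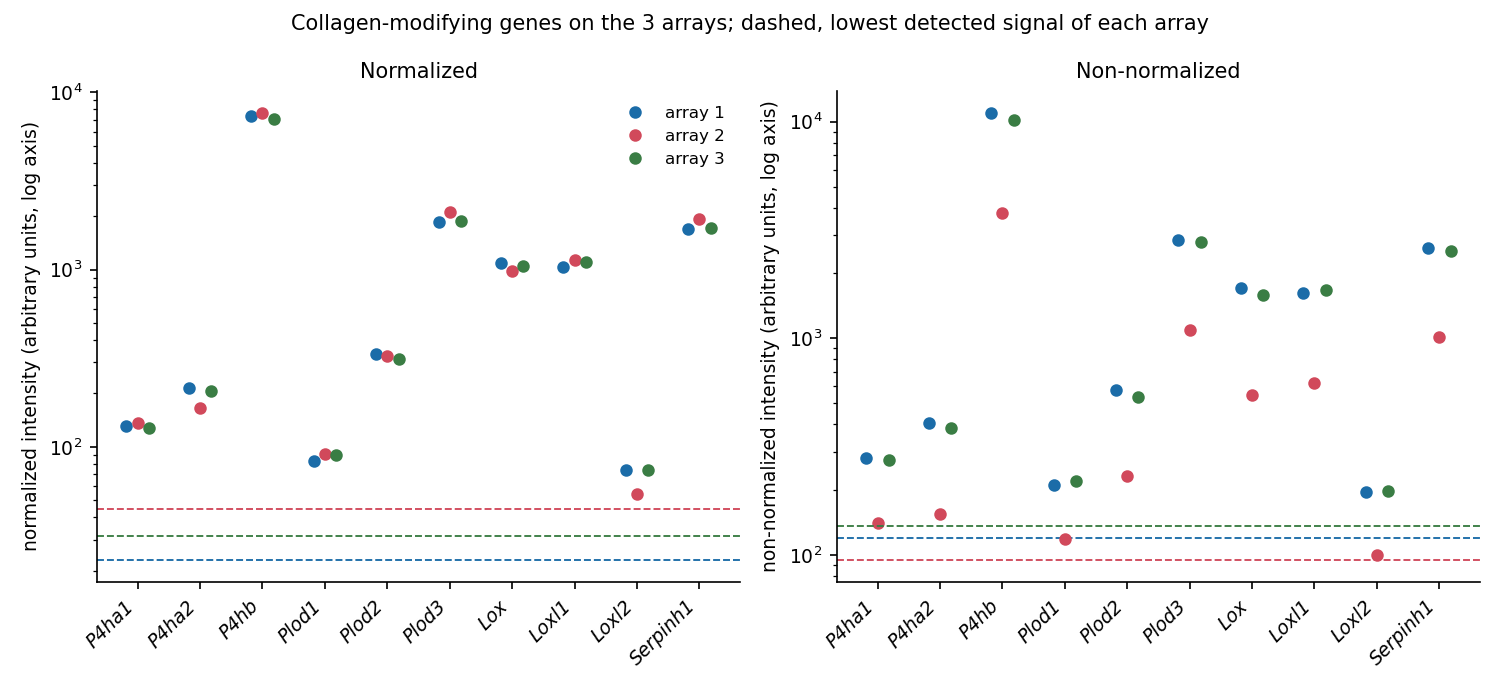
Normalized (left) and non-normalized (right) intensity of each gene on arrays 1, 2 and 3, in arbitrary units on log axes, with a dashed line at the lowest detected signal of each array. In the normalized values the arrays lie close together and Loxl2 is nearest to the lines, and in the non-normalized values array 2 is lower for all 10 genes. Heights of different genes cannot be compared, since each is a different probe.

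Array 2 was dimmer before normalization. Its median non-normalized intensity over all probes was 83.8, against 107 on array 1 and 112 on array 3, and its normalized values equalled 2.07 times the non-normalized ones plus a constant, with factors of 0.672 for array 1 and 0.699 for array 3. In the non-normalized table all 10 genes were lower on array 2 than on the other arrays. The difference, array 2 minus the mean of arrays 1 and 3 on the log2 scale, ran from -1.59 for Lox to -0.87 for Plod1, with a median of -1.35 for the 10 genes and -1.25 for the 9693 detected probes.

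After normalization the same difference had a median of 0.08 over the 10 genes and 0.02 over all detected probes. Array 2 was the highest of the arrays for 6 genes (P4ha1, P4hb, Plod1, Plod3, Loxl1 and Serpinh1), the lowest for 3 (P4ha2, Lox and Loxl2) and between the others for Plod2. The largest departures were -0.45 for Loxl2 and -0.34 for P4ha2 downward, and 0.18 for Serpinh1 and 0.18 for Plod3 upward. Each was set beside the detected probes whose mean signal lay within 2-fold of the gene's own. None of the 10 fell outside the central range, from percentile 5 to 95, of those probes, which ran from -0.56 to 0.71 around Loxl2 and from -0.15 to 0.28 around Serpinh1. Around P4hb the probes had a median of 0.19, and only 22.6% of them lay below the 0.09 of P4hb. Although highest on array 2, P4hb was thus low there for its brightness. The difference of array 1 minus array 3 ran from -0.11 for Plod1 to 0.09 for Plod2.

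**Figure D2:**
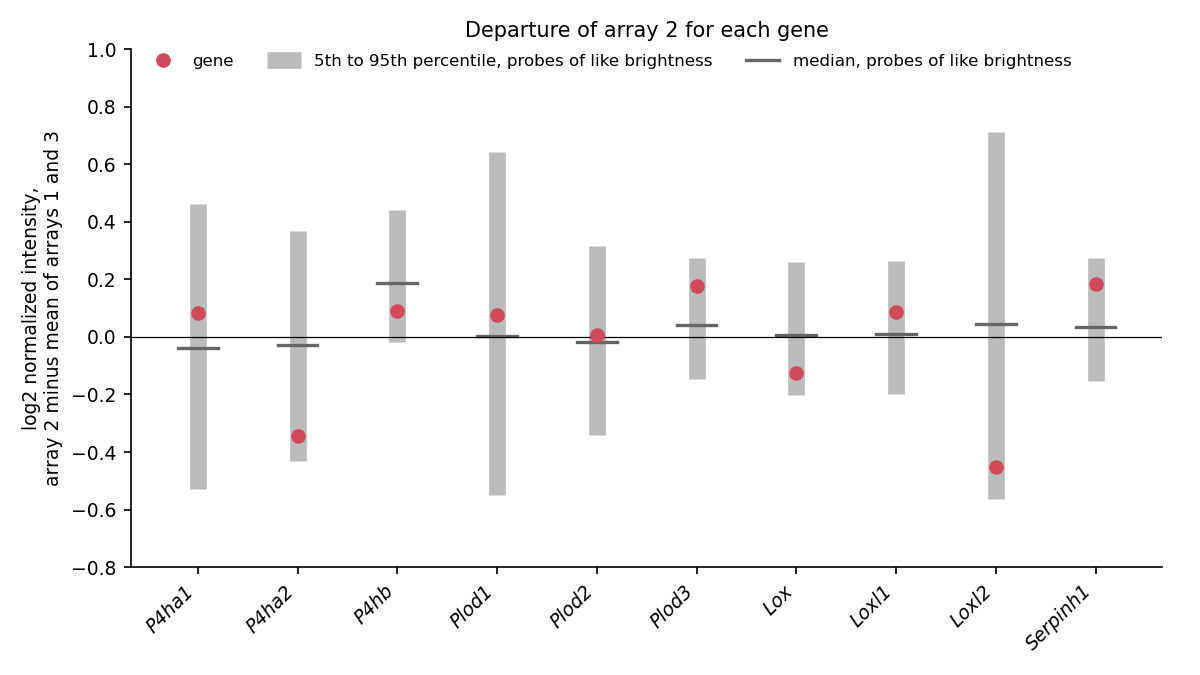
Difference in log2 normalized intensity, array 2 minus the mean of arrays 1 and 3, for each gene (red points), with the median (dark line) and percentiles 5 to 95 (grey bar) of detected probes within 2-fold of its mean signal. Loxl2 at -0.45 and P4ha2 at -0.34 are lowest, and all 10 points lie within their bars.

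The SD of log2 normalized intensity had a median of 0.07 over the 10 genes, ranging from 0.05 for Plod2 to 0.26 for Loxl2. Over all detected probes its median was 0.11, with 0.02 and 0.37 at percentiles 5 and 95. Set against detected probes of like brightness, P4hb (0.06, against a median of 0.11 for 412 probes), P4ha1 (0.05, against 0.15), Plod1 (0.07, against 0.18) and Plod2 (0.05, against 0.10) varied less than the median probe. The other 6 genes varied more than the median, and none exceeded percentile 95. The SD lay above that of 79.6% of the probes of like brightness for Serpinh1 (0.11, against a median of 0.07), 78.7% for P4ha2 (0.20, against 0.12) and 77.0% for Plod3 (0.10, against 0.07).

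**Figure D3:**
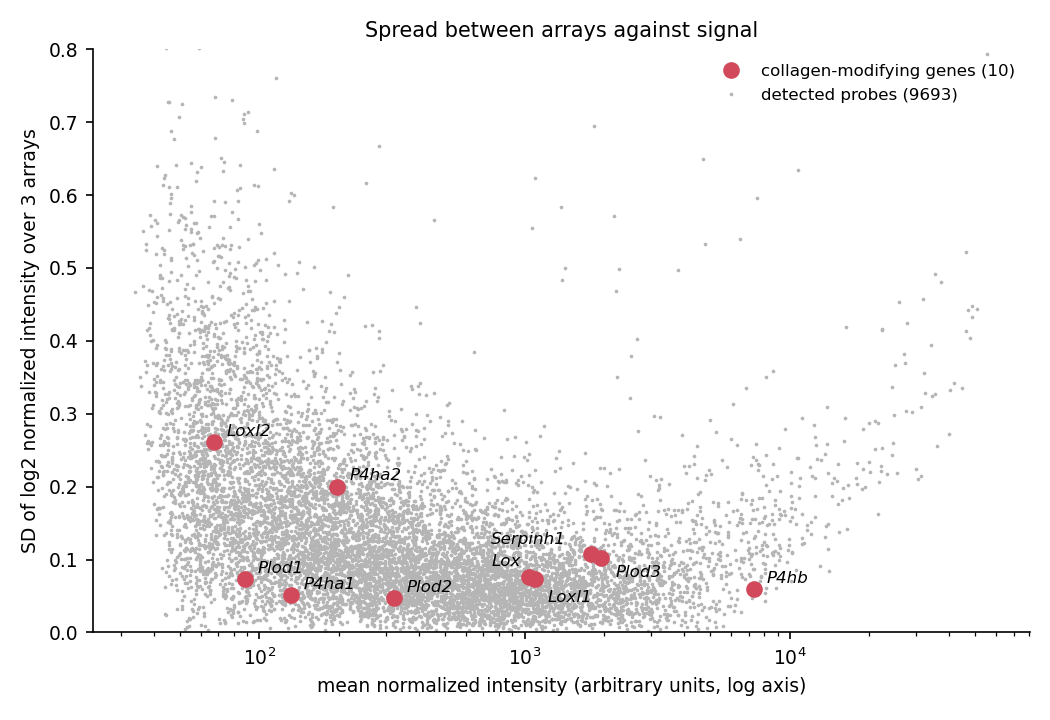
SD of log2 normalized intensity over the 3 arrays against mean normalized intensity (arbitrary units, log axis), for the 10 genes (red) and all 9693 detected probes (grey), of which 13 lie above the plotted limit of 0.8. Loxl2 and P4ha2 have the largest SD of the 10, at 0.26 and 0.20, and Plod2 the smallest at 0.05.

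The genes that work beside these enzymes were read from 7 lists, with 49 of 72 measured genes detected (68.1%), beside 43.6% of all genes. No list was tested against the share of all genes. Among other hydroxylases and their partners 6 of 8 were detected. These included Crtap (491 ± 24.0) and P3h1 (170.5 ± 23.7), which form the prolyl 3-hydroxylation complex of fibrillar collagen, and P3h3 (289.5 ± 21.0) and P3h4 (454 ± 16.9), whose products join the Plod1 enzyme in a complex in the mouse. Colgalt1 (1302 ± 73.8) and Colgalt2 (78.6 ± 7.53), the galactosyltransferases that act on hydroxylysine, were detected as well, Colgalt2 by 1 of 2 probes. P3h2, a prolyl 3-hydroxylase of basement membrane collagen, passed on 1 array (27.0 ± 8.08) and was not counted as detected.

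Folding and export genes of the endoplasmic reticulum were detected at 15 of 20 (75%, beside 43.6% of all genes). The peptidyl-prolyl isomerase genes Fkbp7 (467 ± 37.8), Fkbp9 (2729.7 ± 91.6), Fkbp10 (568 ± 9.08), whose product assists telopeptide lysyl hydroxylation, and Fkbp14 (371 ± 19.6) were all detected. So were the disulfide isomerase genes Pdia3 (4038 ± 68.3), Pdia4 (944 ± 39.6) and Pdia6 (241 ± 28.2), the relatives of P4hb. Kdelr2 (275 ± 28.7) and Kdelr3 (538 ± 44.5), receptors that return escaped residents of the reticulum, passed, and Kdelr1 (28.2 ± 7.12) passed on 2 arrays only. The undetected genes besides Kdelr1 were Canx (4.92 ± 10.5), Mia3 (2.40 ± 7.49), Sec23a (3.03 ± 3.11) and Creb3l1 (6.40 ± 8.63). Canx encodes calnexin, a lectin chaperone of nearly every cell, so a probe at background was not read as absence of the transcript.

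Beside the lysyl oxidases, Bmp1, the protease that frees Lox from its propeptide, was detected by 3 of 4 probes (brightest probe 1613 ± 145). Efemp2, which encodes fibulin-4, a scaffold for Lox on elastic fibres, lay at 1352 ± 244, and the copper transporter gene Atp7a at 261 ± 36.1. The Bmp1 relatives Tll1 (0.285 ± 6.55) and Tll2 (14.6 ± 7.70) and the matricellular gene Postn (12.4 ± 6.24) were not detected. This left 3 of 8 for the list (37.5%), near the 43.6% of all genes. Propeptide removal and fibril assembly gave 4 of 5, with Adamts2 (244 ± 24.2), Pcolce (330.1 ± 19.9), Pcolce2 (104 ± 22.5) and Sparc (2179 ± 103), and without Adamts3 (5.49 ± 10.8).

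Cofactor and proline supply was read at 5 of 9 (55.6%, beside 43.6% of all genes). The ascorbate transporter gene Slc23a2 (130.5 ± 9.76) was detected and its relative Slc23a1 (-9.17 ± 7.31) was not, nor was Gulo (-1.51 ± 2.74), which completes ascorbate synthesis in mouse liver. Proline synthesis was represented by Aldh18a1 (573 ± 38.4) and Pycrl (612 ± 22.8), with Pycr1 (2.30 ± 4.15) at background, and proline recycling by Pepd (84.4 ± 30.8). Prodh, whose product breaks proline down, was not detected (13.3 ± 7.59).

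All 9 substrate genes, 8 collagen chains and Eln, were detected, among them Eln, which encodes elastin, at 117 ± 12.1 and the basement membrane chain Col4a1 at 2177 ± 39.1. Col2a1 and Col3a1 of this list also served below as markers, of cartilage and of dermal mesenchyme. Hypoxia-regulated genes were listed because P4ha1, P4ha2, Plod2 and Lox are known targets of hypoxia-inducible factor. They gave 7 of 13 (53.8%, beside 43.6% of all genes). Detected were Ldha (5678 ± 367), Slc2a1 (1835 ± 152), Vegfa (1103 ± 73.8), Egln2 (271 ± 19.2), Egln3 (257 ± 13.6), Pdk1 (235 ± 18.9) and Ndrg1 (174 ± 21.9). The factor genes Hif1a (-4.65 ± 9.88) and Epas1 (-1.29 ± 5.74), Egln1 (11.2 ± 5.25), Bnip3 (-1.40 ± 1.28), Adm (11.5 ± 14.3) and Car9 (21.6 ± 6.15) were not. As for Canx, probes at background were not read as absence of the transcripts.

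**Figure D4:**
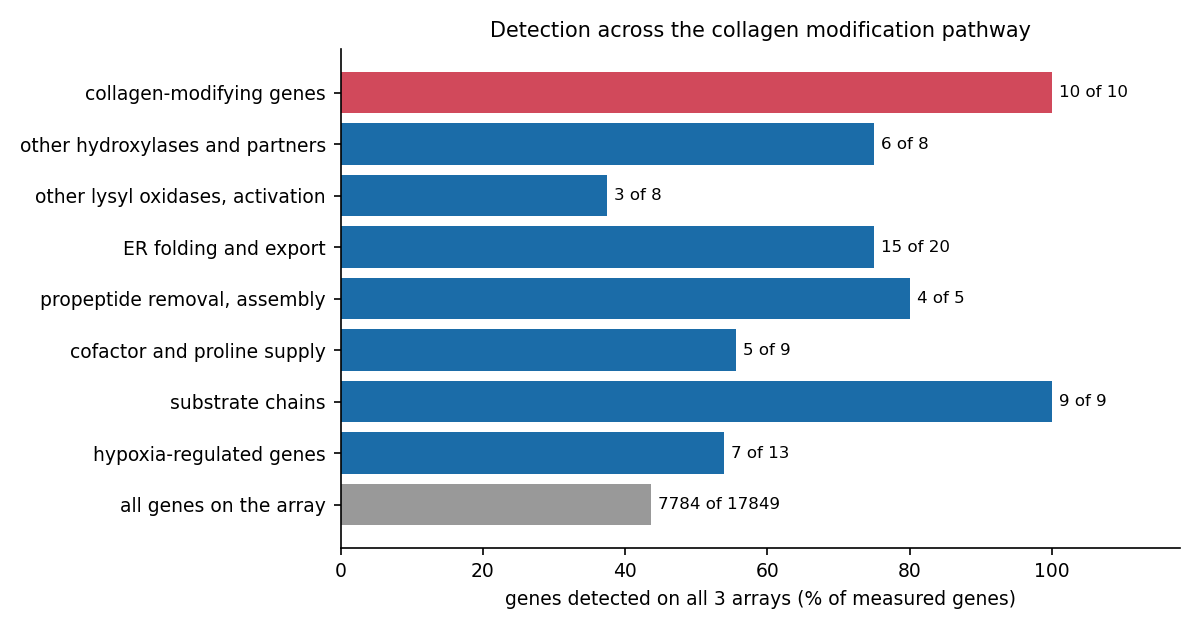
Genes detected on all 3 arrays as a percentage of measured genes, for the 10 collagen-modifying genes (top, red), the 7 lists of genes that work beside them (blue) and all 17849 genes on the array (bottom, grey), with counts at the bar ends. Detection ran from 3 of 8 for the other lysyl oxidases and their activation to 9 of 9 for the substrate chains.

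The label of the tissue was checked against markers. Of 7 genes of dermal mesenchyme 6 were detected (85.7%), Dpt (2.13 ± 3.02) being the exception. Of those detected, En1 lay nearest to background (46.6 ± 7.46). In this genotype Cre is expressed from the Engrailed1 locus, and what that does to the En1 signal was not tested. Markers of other cell types were detected at 26 of 34 (76.5%), including all 4 of cartilage, of epidermis and of erythroid cells, 3 of 4 each of endothelium, macrophage and neuron, 2 of 3 of skeletal muscle, 2 of 4 of smooth muscle and pericytes and 1 of 3 of bone. Over all genes the share was 43.6%. With both marker shares above it and close together, the counts alone do not set the dermal label apart. With every probe of a gene required, 4 of 7 dermal genes and 21 of 34 other markers passed, beside 32% of all genes. Of the 4 macrophage genes, 0 passed that rule. Brightest-probe signals included 48801 ± 15629 for Hba-a1, 3236 ± 151 for Actc1, 2350 ± 101 for Col2a1 and 1313 ± 58.6 for Krt14. Krt5 lay at 72.2 ± 8.97 and Cspg4 at 72.6 ± 11.6. Runx2, Kdr, Myh11, Rgs5, Ptprc and Tubb3 passed on no array, and Ibsp and Myod1, which were not counted as detected either, passed on array 2 only. Cartilage, bone and vessel cells also modify collagen, and the part of such cells in the 10 signals was not tested. In a bulk pool, fewer cells of a type and less RNA per cell cannot be told apart.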

How the data were processed

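The authors deposited the intensity of each probe before and after their normalization, both with a detection p-value per probe and array, per the file headers. The normalization method and the scanner software are not given in the sources used here. In the values, each array's normalized intensity was 1 factor times the non-normalized intensity plus 1 constant, and values were below 0 at 24.0% to 27.7% of probes. The series value table was identical to the normalized one, linear and uncentred. Detection p-values came in 798 steps, and the signals of the control beads were not analysed here.

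Probes were assigned by file symbol and, for the lists and gene counts, updated through RefSeq names (GRCm38.p6): 17548 by symbol, 1320 by definition, 5855 by synonym and 974 left as given. P4hb, Loxl1 and Loxl2 had only a symbol in the file. A gene with several probes is valued by its brightest. Probe sequences and genome coordinates were not used here. The 10 genes and the 7 lists were chosen with earlier results of these data known, all 10 genes and any measured list gene could be named, and Ppib, Fn1, Adamts14 and Ankrd37, with no probe under these names, were not analysed here. The values of 1 further list gene are not reported here. With 1 group of 3 technical arrays, no model was fitted and no gene was sought for a like pattern. Background-corrected values for comparison came from limma 3.58.1 (normexp with controls inferred from the detection p-values, then quantile normalization). Calls and SDs were tested on simulated data. The number of arrays limits the precision.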

Additional observations from a re-analysis of the deposited data

How the results depend on the processing

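The count of 10 detected genes was 9 at a detection p under 0.001, where Loxl2 was lost through array 2. It was 10 under the 7 other settings, among them leaving out each array. Those 7 settings could not lower it, being looser or, with 1 probe per gene, the same, so they are no check of the count. The count over the 7 lists ran from 41, with every probe of a gene required, to 51, with detection on at least 1 array, around 49. The median SD of log2 signal over the 10 genes, 0.07, was 0.782 on the non-normalized intensity, where array 2 minus the mean of the other arrays was -1.25 on the log2 scale over all detected probes. It was 0.0704 with normexp background and quantile normalization, 0.0737 with 16 added before the logarithm, and from 0.0383 (without array 2) to 0.103 (without array 3) when an array was left out. The mean signal of all 10 genes moved by more than 1 SD under normexp and quantile normalization, to between 1.11 and 1.38 times the value reported, beside a median of 1.20 over all detected probes, and by at most 9.85% when an array was left out. No paired analysis was possible because the series holds 1 group. Depth is not defined for arrays, and the signal over background was smallest for Loxl2 and Plod1.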

Other observations

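Each of the 10 genes rested on 1 probe, so no second probe could be set beside it. The pathway lists show how often a second probe gave another call. Of 19 list genes with several probes, some but not all probes were detected for 8, namely P3h1, Colgalt2, Bmp1, Creb3l2, Pcolce2, Col3a1, Egln3 and Vegfa. The brightest Col3a1 probe had 4563 ± 202 and its other probe 14.1 ± 12.1. For Bmp1 the brightest probe had 1613 ± 145 and the dimmest 20.1 ± 11.5. Over all genes on the array with several probes, the calls disagreed for 41.0%.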
